A study of Mus musculus with 33 samples.

Results

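The genes described here are 9 transcription factors that set and hold the identity of hepatocytes: Hnf4a, Foxa1, Foxa2, Foxa3, Cebpa, Onecut1, Prox1, Nr5a2 and Nr1i3. They were picked out by gene symbol and are 9 of the 21671 genes in the deposited table. All 9 passed the filter on low values in both sets of libraries and were tested there. The 33 total RNA libraries came from C57BL/6 mice, from liver or from liver nodules, and follow what MYC, the b-catenin allele Ex3, or both do in hepatocytes. The first set, called the day 4 livers, came from mice that were 6 to 8 weeks old when they received AAV8-TBG-CRE, a virus whose hepatocyte promoter drives Cre, and were killed 4 days later. All 20 of these livers saw the virus and Cre, the controls included. They were of 4 genotypes with 5 livers each: wild type, beta-cat Ex3 (Ex3), R26-lslMYC (MYC) and R26-lslMYC/beta-cat Ex3 (MYC+Ex3). The second set, called the tumour arm, held 3 liver nodules of genotype Albeta-CreERT2/R26-lslMYC (MYC tumours) and 3 of Albeta-CreERT2/R26-lslMYC/beta-catEx3 (MYC+Ex3 tumours). Their comparison group was 7 wild-type livers taken 4 days after 4-OHT, the active form of tamoxifen. For these livers the labels give only WT, with no Cre allele. The labels give no age for the tumour arm and do not say whether nodules came from separate mice, so the p-values measure the spread between these samples. A nodule was compared with whole liver, and in such bulk samples fewer cells of a type and less RNA per cell cannot be told apart.

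Hepatocyte identity rests on a small circuit of factors that bind each other's genes and a large set of liver enhancers. FOXA proteins are pioneer factors that open chromatin, HNF4A is a nuclear receptor that most hepatocyte genes need, and C/EBP-alpha drives metabolic genes and restrains division. Onecut1 (HNF6) and Prox1 act in the fetal liver and in the choice between hepatocyte and bile duct cell. Nr5a2 (LRH-1) controls bile acid and cholesterol genes, and Nr1i3 (CAR) is the receptor that turns on drug-metabolising enzymes after exposure to foreign compounds. MYC is a growth-promoting transcription factor, and b-catenin is the effector of Wnt signalling, which in the liver marks the hepatocytes around the central vein.

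The promoters of Nr1i3 and of the 4 changed factors with a single RefSeq promoter are shown so that their base composition and motif content can be read beside the values. Each is the stretch of 250 bases before the RefSeq start site on GRCm38.p6, 5' to 3' on the strand of the gene. The submitters' processing notes name another build, mm9, so no coordinate of the deposited values is given. Capitals mark CACGTG, the E-box letters bound by MYC with MAX, and in Foxa1 the FOXA letters TGTTTAC, there on the opposite strand. Foxa3 lies at chr7:19023540-19023789 (minus strand), Cebpa at chr7:35119043-35119292 (plus), Onecut1 at chr9:74861671-74861920 (plus), Foxa1 at chr12:57546112-57546361 (minus) and Nr1i3 at chr1:171213720-171213969 (plus).
Foxa3: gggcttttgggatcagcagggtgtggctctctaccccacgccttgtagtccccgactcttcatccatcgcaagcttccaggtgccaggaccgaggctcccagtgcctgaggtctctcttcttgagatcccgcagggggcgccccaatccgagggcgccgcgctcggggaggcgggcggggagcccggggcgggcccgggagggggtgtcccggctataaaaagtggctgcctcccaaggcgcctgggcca
Cebpa: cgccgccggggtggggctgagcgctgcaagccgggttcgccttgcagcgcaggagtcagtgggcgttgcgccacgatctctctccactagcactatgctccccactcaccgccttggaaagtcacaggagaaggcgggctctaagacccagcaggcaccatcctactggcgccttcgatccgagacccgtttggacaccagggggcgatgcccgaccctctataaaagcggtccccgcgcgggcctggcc
Onecut1: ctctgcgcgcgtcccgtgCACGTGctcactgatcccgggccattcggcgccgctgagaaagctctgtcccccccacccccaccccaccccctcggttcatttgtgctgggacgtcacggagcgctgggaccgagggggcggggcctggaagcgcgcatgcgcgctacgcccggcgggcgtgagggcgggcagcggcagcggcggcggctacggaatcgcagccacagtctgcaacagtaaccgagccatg
Foxa1: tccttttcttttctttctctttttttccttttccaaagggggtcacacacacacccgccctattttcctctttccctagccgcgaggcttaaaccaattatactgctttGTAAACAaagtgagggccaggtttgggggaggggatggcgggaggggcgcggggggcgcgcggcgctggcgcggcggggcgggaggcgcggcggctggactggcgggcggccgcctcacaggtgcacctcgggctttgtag
Nr1i3: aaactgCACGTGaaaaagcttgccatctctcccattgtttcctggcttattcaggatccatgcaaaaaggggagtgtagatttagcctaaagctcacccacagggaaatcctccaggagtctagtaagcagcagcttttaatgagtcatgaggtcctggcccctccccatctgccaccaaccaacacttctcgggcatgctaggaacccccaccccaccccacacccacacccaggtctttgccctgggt

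These windows, with the 50 bases after the start, were searched on both strands for letters of factors named in the design and in the circuit. The 9 factors had 14 RefSeq promoters. CACGTG stood in 2 of them, that of Onecut1 at 232 bases before the start and that of Nr1i3 at 244, against 7.15% of all 32851 mouse promoters of the same length. The TCF/LEF letters CTTTGAT stood in 1 promoter of Foxa2 (3.73% of all promoters) and the form CTTTGAA in none (5.14%). TGTTTAC stood in the promoter of Foxa1 (3.65%), the ONECUT letters ATCAATA in 1 promoter each of Foxa2 and Hnf4a (2.05%), and the C/EBP letters TTGCNNAA in 1 of Nr5a2 (10.8%). The HNF4A letters CAAAGTCCA (0.475%) and the HNF1 motif (0.0609%) were in none. GC content was 73.0% in the Onecut1 window, 69.0% in Foxa3, 67.3% in Cebpa, 62.3% in Foxa1 and 54.0% in Nr1i3, beside a median of 52.7% over all promoters. A match of letters is a description of sequence and not a binding site.

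Levels are given as RPKM, which divides a gene's reads by its length and by a library total that the authors chose. Reads assigned to genes numbered 3.75 to 7.31 M per library in the 20 day 4 livers and 6.65 to 9.82 M in the 13 libraries of the tumour arm. The authors' totals counted nearly only reads in genes for the day 4 livers and many other reads for the tumour arm, of which 22.2% to 29.6% lay in genes, so the RPKM scales differ and levels are compared within a set. Axin2, a b-catenin target that checks the Ex3 label, was at 3.32 ± 0.609 RPKM in wild-type day 4 livers and 18.4 ± 5.37 in Ex3 livers (SD, n = 5 each). The mouse Myc row was at 2.57 ± 1.22 RPKM in wild-type and 3.99 ± 0.751 in MYC livers (SD, n = 5 each), and whether it takes up reads of the transgene is not given in the sources used here. All 9 measured hepatocyte markers were above 0 in every group. In 10 of the 20 day 4 libraries the skin keratins Krt5, Krt14 and Krt17 summed to more than 1 RPKM (3.95 to 23.8), against at most 0.398 in the other 10. These keratin-bearing libraries made up 1 of the 5 MYC livers and 3 of the 5 in each other genotype. They held 3.75 to 5.10 M reads in genes, and the keratin-free libraries 5.25 to 7.31 M, save MYC liver 3 at 4.39 M. The keratin sets thus nearly split the livers by depth, and the parts of keratin set and depth were not told apart. Xist and Ddx3y, read because the labels give no sex, put 12 of the 20 day 4 livers and 9 of the 13 tumour-arm libraries as male.

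In wild-type day 4 livers Cebpa (179 ± 20.4 RPKM) and Hnf4a (169 ± 21.5) stood highest of the 9 factors, with ranges that overlapped, and Foxa3 came next at 103 ± 15.7 (SD, n = 5). Each of the pairs Hnf4a and Foxa3, and Foxa3 and Nr1i3, was separated without overlap of its libraries. Below them Nr1i3 (48.4 RPKM), Prox1 (44.7), Nr5a2 (38.7), Foxa2 (38.5), Onecut1 (21.2) and Foxa1 (13.9) formed a run in which every neighbouring pair overlapped. In the 4-OHT livers the order was Hnf4a (33.2 RPKM), Cebpa (21.7), Foxa3 (18.0), Prox1 (12.2), Nr1i3 (10.1), Nr5a2 (8.72), Foxa2 (8.56), Onecut1 (6.26) and Foxa1 (2.74). There Hnf4a lay above Cebpa, Foxa3 above Prox1, and Onecut1 above Foxa1 without overlap, while all other neighbours overlapped. Hnf4a also had the highest mean of the 9 in both kinds of tumour. The factors differed in how much they varied. Over the 20 day 4 livers the highest library held 1.57 times the lowest for Hnf4a and 1.76 times for Cebpa, but 5.44 times for Nr1i3 and 13.9 times for Onecut1. Over the 13 libraries of the tumour arm the same ratio was 1.57 for Nr5a2, 1.62 for Hnf4a, 11.1 for Onecut1 and 17.9 for Nr1i3. At day 4 Hnf4a and Cebpa also lay nearest the upper limit described next, and its part in these spreads was not tested.

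The table has a measured upper limit. In no day 4 library did any gene exceed 1.65 recovered reads per base of gene, and in no tumour-arm library 1.81. Cebpa reached 0.658 to 1.12 reads per base in the day 4 livers and Hnf4a 0.579 to 0.972, and in the tumour arm Hnf4a reached 0.877 to 1.2. With the log2 read depth of each library added to the fit, the calls given below on Foxa3, Cebpa and Hnf4a in MYC+Ex3 against wild type at day 4 were kept. In the tumour arm the same term ended both calls on Foxa2 (limma adjusted p = 0.0685 and 0.0932) and gave calls on Onecut1 (-0.83, 0.0441) and Prox1 (-0.49, 0.0350) in MYC tumours. The part of this limit in the changes of these genes was not tested.

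**Figure D1:**
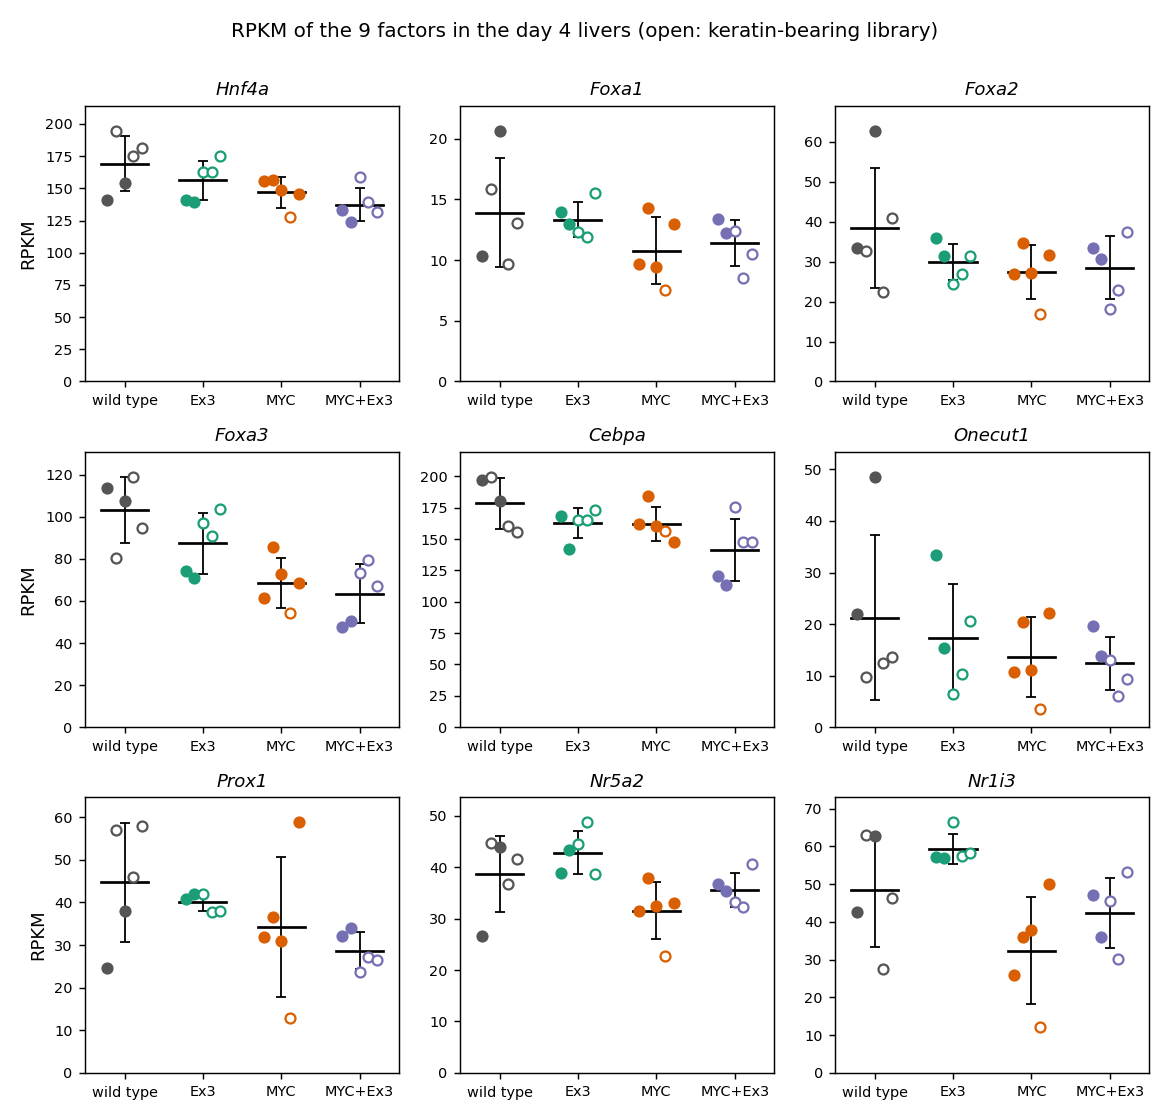
RPKM (y axis, from 0) of each factor in the 20 day 4 livers by genotype; points are libraries, open where they were keratin-bearing, bars are the mean and SD of 5. Foxa3 in the MYC+Ex3 livers (47.6 to 79.3 RPKM) lies below all wild-type livers (80.2 to 119), while Onecut1 spreads widely within every genotype.

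Across the 9 comparisons every call on a factor, at a limma adjusted p under 0.05 over all genes tested, was lower in the group with MYC. Ex3 alone changed 0 of the 9 at day 4, where 0.132% of the 13688 genes tested were called, 744 had an unadjusted p under 0.05, and the authors' deposited table also called 0 of the 9. MYC lowered 1 of 9 (Foxa3), where 5.36% of all genes were called lower and 22.3% in either direction. MYC+Ex3 against wild type lowered 3 of 9 (Foxa3, Cebpa and Hnf4a), where 6.18% were called lower and 24.1% in either direction. MYC+Ex3 against Ex3 lowered 1 of 9 (Foxa3), with 4.7% of genes called lower and 21.1% in either direction. MYC+Ex3 against MYC changed 0 of 9 (background 0.19%, with 461 genes at an unadjusted p under 0.05), and the interaction of MYC and Ex3 0 of 9 (background 0.0%, with an unadjusted p under 0.05 for 132 genes). Among the nodules, MYC tumours against 4-OHT livers had 2 of 9 lower (Foxa1 and Foxa2), with 13.7% of 11854 genes called lower and 49.8% in either direction. MYC+Ex3 tumours had 4 of 9 lower (Onecut1, Foxa1, Cebpa and Foxa2), with 18.4% called lower and 60.6% in either direction. MYC+Ex3 tumours against MYC tumours had 0 of 9 (background 4.13%, 2.1% lower and 2.02% higher, with 2089 at an unadjusted p under 0.05). Comparisons that share a reference group are not independent of each other.

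The median log2 change of the 9 factors was -0.43 for MYC against wild type at day 4, beside 0.07 over all genes tested, and -0.35 for MYC+Ex3 against wild type, beside 0.05. It was -0.39 in MYC tumours and -0.26 in MYC+Ex3 tumours against the 4-OHT livers, where the medians over all genes were 0.19 and 0.23. Dividing each library by its median ratio to the others took these last medians to 0.01 and 0.04, and then 7 of the 9 factors were called lower in either kind of tumour. Of the 11855 genes tested after this rescaling, 2788 were called lower in MYC tumours and 3242 in MYC+Ex3 tumours. The split of all calls moved with the rescaling, from 72.6% to 53.4% higher for MYC tumours and from 69.7% to 55.2% for MYC+Ex3 tumours. At day 4 the same rescaling moved it from 75.9% to 59.1% higher for MYC, from 74.4% to 61.2% for MYC+Ex3 against wild type and from 77.7% to 67.0% for MYC+Ex3 against Ex3, and left the number of factors called at 1, 3 and 1. Of the 13663 genes then tested at day 4, 1302, 1301 and 956 were called lower. The authors' deposited table called 1 of the 9 for MYC and 3 for MYC+Ex3 against wild type at day 4, and 5 and 7 for the tumours, all lower. The share of all genes called by the authors is not given here. These counts, and theirs for Ex3 above, therefore cannot be read as particular to the 9 factors.

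**Figure D2:**
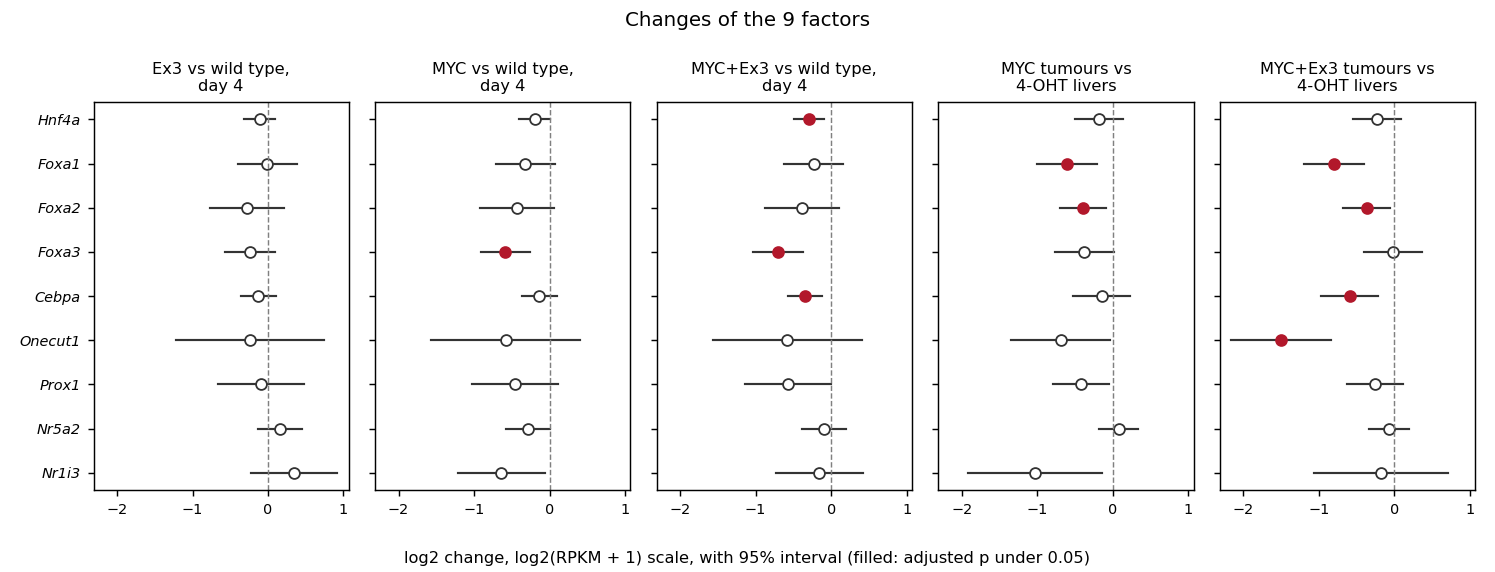
The log2 change of each factor (x axis, log2(RPKM + 1) scale) with its 95% interval in 5 comparisons; filled points passed a limma adjusted p under 0.05. All filled points lie left of 0, and Onecut1 in the MYC+Ex3 tumours lies farthest (-1.50).

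Of the 3 forkhead factors, Foxa3 was the one called at day 4 as fitted, and no difference between the 3 was tested. Foxa3, the most abundant FOXA gene in these livers, was at 114, 80.2, 107, 119 and 94.9 RPKM in the wild-type livers. In the MYC livers it was at 61.2, 85.8, 73.0, 54.4 and 68.4 RPKM. In the MYC+Ex3 livers it was at 47.6, 50.3, 73.2, 79.3 and 67.2 RPKM. So 4 of 5 MYC livers and all 5 MYC+Ex3 livers lay below every wild-type liver, a separation in that direction that 3.7% of all genes showed for MYC+Ex3. The log2 change was -0.58 ± 0.158 (SE; limma adjusted p = 0.0112) with MYC, to 66.5% of the wild-type mean. With MYC+Ex3 it was -0.70 ± 0.158 (limma adjusted p = 0.0026), to 61.6%. Ex3 livers lay between, at 74.0, 71.0, 97.3, 90.9 and 104 RPKM, overlapping wild type (-0.24 ± 0.158, 95% interval -0.57 to 0.09). Against Ex3 livers, MYC+Ex3 livers were lower by -0.47 ± 0.158 (limma adjusted p = 0.0407).

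The fall of Foxa3 with MYC passed the test in all 10 other settings and in all 20 fits without 1 library. Within the keratin-free libraries it was -0.62 with MYC (limma adjusted p = 0.0166) and -1.16 with MYC+Ex3 (0.000834), and within the keratin-bearing ones -0.40 with MYC+Ex3 (0.0793). The call of MYC+Ex3 against Ex3 was lost with no filter on low values (limma adjusted p = 0.0620), from the compared groups only (0.0524), within the keratin-bearing libraries (0.0951) and without any 1 of 5 libraries (Ex3 livers 3, 4 and 5, MYC+Ex3 livers 1 and 2; limma adjusted p = 0.0797 to 0.124). The interaction of Foxa3 was 0.12 ± 0.224 (95% interval -0.35 to 0.59).

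Foxa1 and Foxa2, which act with each other in liver development, did not pass the test in any day 4 comparison as fitted. With a keratin term Foxa2 passed it for MYC against wild type (-0.62, limma adjusted p = 0.0309). Their values ran from 7.53 to 20.6 and from 16.9 to 62.7 RPKM over the 20 livers, with group ranges that overlapped throughout. With MYC the log2 changes were -0.32 ± 0.187 for Foxa1 and -0.43 ± 0.235 for Foxa2 (limma adjusted p = 0.235 and 0.201). For both genes wild-type liver 3 was the highest and MYC liver 4 the lowest of the 20.

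In the tumour arm Foxa1 and Foxa2 were the FOXA genes called. Foxa1 was at 1.98, 2.73 and 3.63 RPKM in the 4-OHT livers (lowest, median, highest of 7). It was at 1.87, 0.622 and 2.12 RPKM in the MYC tumours and at 1.56, 0.861 and 1.03 in the MYC+Ex3 tumours. All 3 MYC+Ex3 tumours and 2 of 3 MYC tumours thus lay below every 4-OHT liver. For the MYC+Ex3 tumours, 17.8% of all genes tested showed such a separation in that direction, so it is not particular to Foxa1. The MYC tumours overlapped the livers by their highest nodule, and no background share is given for them. The change of Foxa1 was -0.61 ± 0.186 in MYC tumours (limma adjusted p = 0.015) and -0.80 ± 0.186 in MYC+Ex3 tumours (limma adjusted p = 0.00196). The means were 56.0% and 42.0% of the 4-OHT mean, and on the log2(RPKM + 1) scale such low levels have their change understated. Without MYC tumour 2, which held 77 reads of Foxa1, the change in MYC tumours was -0.31 (limma adjusted p = 0.115), and against the S15 livers alone, as named below, it was -0.52 (0.124). In the MYC+Ex3 tumours Foxa1 stayed called without any single library.

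Foxa2 was at 6.58, 8.28 and 10.5 RPKM in the 4-OHT livers (lowest, median, highest). It was at 6.51, 4.99 and 7.33 RPKM in the MYC tumours and at 6.49, 5.31 and 7.41 in the MYC+Ex3 tumours. Both kinds of tumour overlapped the livers by their highest nodule. Against the livers, MYC tumours differed by -0.39 ± 0.144 (limma adjusted p = 0.0345). For MYC+Ex3 tumours the value was -0.37 ± 0.144 (limma adjusted p = 0.0404). The calls were lost with sex as a covariate (limma adjusted p = 0.0927 and 0.0509), with read depth as given above and, for MYC tumours, with sample weights (0.0694). Against the 4 livers whose titles begin with S14 they were -0.49 and -0.46 (limma adjusted p = 0.032 and 0.0306), and against the 3 of S15 -0.26 and -0.24 (0.242 and 0.272). Leaving out 1 library ended the call in 4 of 13 cases for MYC tumours and 7 of 13 for MYC+Ex3 tumours. Foxa3, the FOXA gene called at day 4, was at 12.9, 15.3 and 12.1 RPKM in the MYC tumours and 16.3, 14.3 and 22.9 in the MYC+Ex3 tumours, beside 14.6 to 24.8 in the 4-OHT livers. Below every liver lay 2 of the 3 MYC nodules and 1 of the 3 MYC+Ex3 nodules. Its changes were -0.37 ± 0.181 (limma adjusted p = 0.0996) and -0.01 ± 0.181 (95% interval -0.40 to 0.37). After median-ratio rescaling they were -0.58 (limma adjusted p = 0.00696) and -0.23 (0.212). The authors' deposited table gives Foxa3 a log2 fold change of -0.61 in MYC tumours, with an adjusted p of 0.00305.

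**Figure D3:**
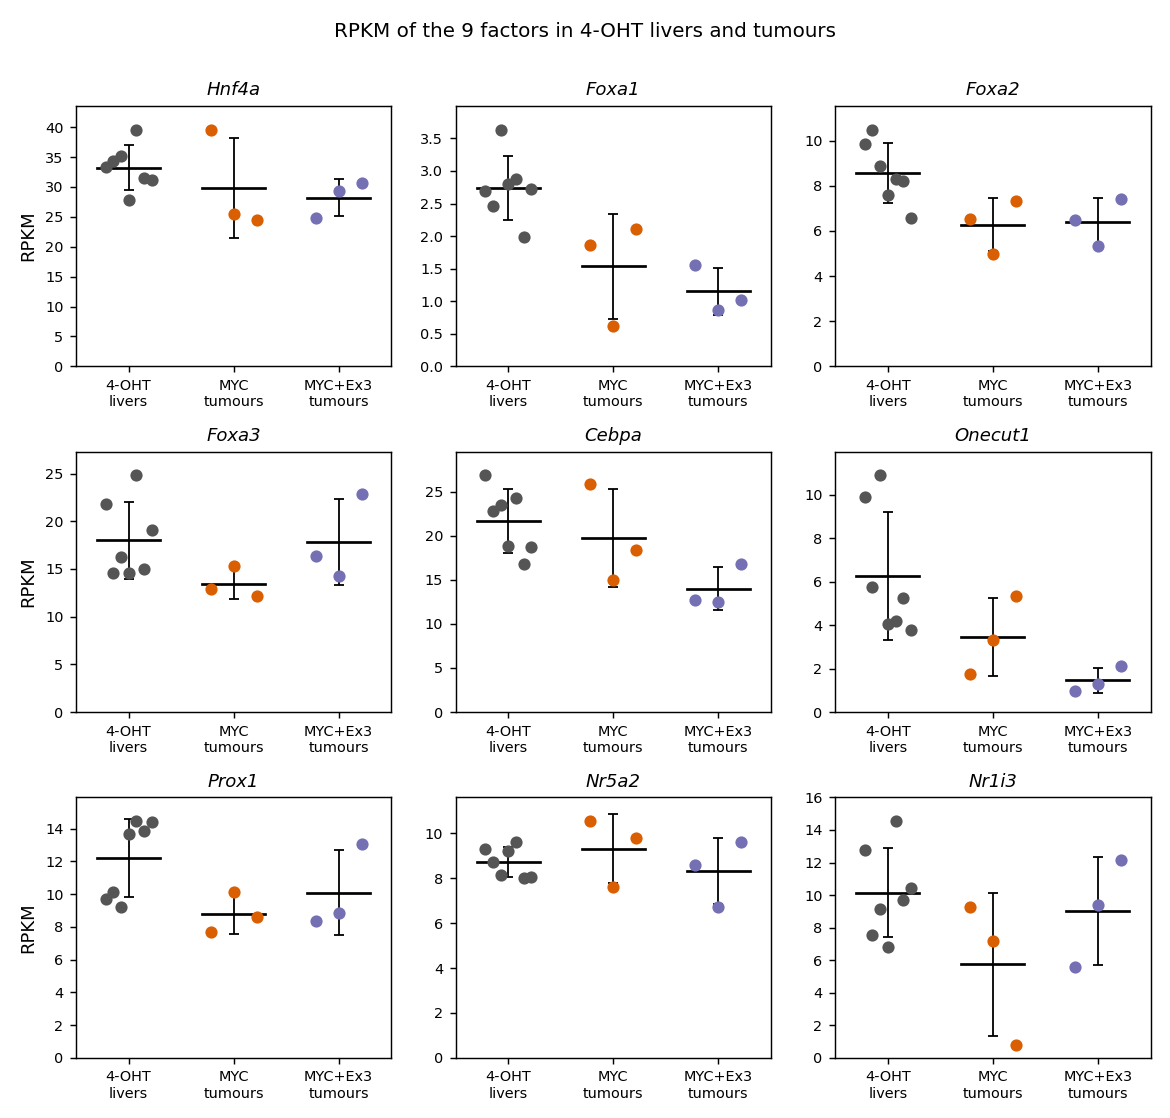
RPKM (y axis, from 0) of each factor in the 7 4-OHT livers, 3 MYC tumours and 3 MYC+Ex3 tumours; points are libraries, bars the mean and SD. Onecut1 and Foxa1 in the MYC+Ex3 tumours lie below all 4-OHT livers, and 1 MYC tumour stands apart for Nr1i3 at 0.811 RPKM.

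Hnf4a, the nuclear receptor at the centre of the circuit, was called in 1 of the 9 comparisons. In the wild-type day 4 livers it was at 141, 195, 154, 175 and 182 RPKM, and in the MYC+Ex3 livers at 133, 124, 159, 140 and 131. Of the MYC+Ex3 livers, 4 of 5 lay below every wild-type liver. The change was -0.29 ± 0.0984 (limma adjusted p = 0.0353), to 81.2% of the wild-type mean. It was lost without any 1 of 7 libraries (wild-type livers 2, 4 and 5, MYC+Ex3 livers 1, 2, 4 and 5; limma adjusted p = 0.0537 to 0.0974), with sex as a covariate (0.0751), with no filter on low values (0.0549), from the compared groups only (0.0745) and within the keratin-free libraries (-0.19, 0.196). With MYC alone Hnf4a was at 127 to 157 RPKM (-0.20 ± 0.0984, limma adjusted p = 0.158). In MYC tumours it was at 39.4, 25.5 and 24.4 RPKM and in MYC+Ex3 tumours at 24.7, 29.4 and 30.6, against 27.8 to 39.6 in the 4-OHT livers. Those ranges overlapped, and the changes were -0.18 ± 0.151 (95% interval -0.50 to 0.14) and -0.23 ± 0.151 (-0.55 to 0.10). Median-ratio rescaling gave -0.39 and -0.45, both called (limma adjusted p = 0.0344 and 0.0152), and without MYC tumour 1 the change in MYC tumours was -0.39 (0.02). The authors' deposited table gives Hnf4a -0.45 in MYC+Ex3 tumours, with an adjusted p of 2.47e-05.

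Cebpa, which drives urea, glucose and lipid metabolism genes, was called lower than in the control livers in both settings that combined MYC and Ex3. At day 4 it was at 197, 200, 181, 160 and 155 RPKM in wild-type livers and at 120, 114, 176, 148 and 148 in MYC+Ex3 livers. The lowest values were MYC+Ex3 livers 1 and 2, both keratin-free, and 4 of 5 lay below every wild-type liver. The change was -0.35 ± 0.11 (limma adjusted p = 0.0252), to 78.9% of the wild-type mean. Within the keratin-free libraries it was -0.68 (limma adjusted p = 0.0058) and within the keratin-bearing ones -0.13 (0.499), and leaving out wild-type liver 1 or 2 or MYC+Ex3 liver 1 or 2 ended the call (0.0600 to 0.0854), as did a fit of the compared groups only (0.0746). With MYC alone Cebpa was at 148 to 185 RPKM (-0.13 ± 0.11, limma adjusted p = 0.416). In the MYC+Ex3 tumours it was at 12.7, 12.5 and 16.8 RPKM against 16.7, 22.7 and 26.8 in the 4-OHT livers (lowest, median, highest). The highest of these nodules lay just above the lowest liver, and the change was -0.59 ± 0.175 (limma adjusted p = 0.00929), to 64.7% of the 4-OHT mean. The call was lost against the S15 livers alone (-0.47, 0.0950) and without MYC+Ex3 tumour 2 (-0.52, 0.0507). MYC tumours, at 25.9, 15 and 18.3 RPKM, overlapped the livers (-0.15 ± 0.175, limma adjusted p = 0.508). The difference between both kinds of tumour was -0.44 ± 0.207 (limma adjusted p = 0.281).

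Onecut1, a homeobox factor of liver and bile duct development, gave the largest change of the 9. In the 4-OHT livers it was at 3.77, 5.25 and 10.9 RPKM (lowest, median, highest). In the MYC+Ex3 tumours it was at 0.978, 1.29 and 2.11 RPKM, from 85 to 156 reads, and in the MYC tumours at 1.75, 3.34 and 5.33. The MYC+Ex3 tumours lay below all livers, and so did 2 of 3 MYC tumours. The change was -1.50 ± 0.308 in MYC+Ex3 tumours (limma adjusted p = 0.000794), to 23.3% of the 4-OHT mean. It passed the test in all 10 other settings and in all 13 fits without 1 library, at -1.76 against the S14 livers (limma adjusted p = 0.00133) and -1.15 against the S15 livers (0.00761). In this comparison 17.8% of all genes lay without overlap below the livers. In MYC tumours the change was -0.69 ± 0.308 (limma adjusted p = 0.0768). It was called after rescaling (-0.87, 0.0211), against the S14 livers (-0.95, 0.0449) and without MYC tumour 3 (-0.98, 0.0333), but was -0.35 (0.361) against the S15 livers, and the fits without 1 library reached -0.38 (0.345). MYC+Ex3 tumours differed from MYC tumours by -0.81 ± 0.365 (limma adjusted p = 0.266).

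At day 4 Onecut1 was not called by genotype and differed between sets of libraries. It was at 9.66 to 48.6 RPKM in wild-type, 6.50 to 33.4 in Ex3, 3.50 to 22.2 in MYC and 6.07 to 19.7 in MYC+Ex3 livers, and no comparison passed the test. MYC livers differed from wild type by -0.58 ± 0.472 (95% interval -1.57 to 0.40). Keratin-bearing libraries held less of it: their median was 10.0 RPKM against 20.1 in keratin-free ones (n = 10 each). With the genotypes in the same fit, the difference of bearing from free was -1.20 ± 0.241 for Onecut1 (limma adjusted p = 0.00221) and -0.46 ± 0.146 for Foxa2 (0.0258), the 2 factors called among 25.9% of all genes. With this library set as a term, MYC against wild type called 4 of 9 factors: Foxa3, Onecut1 (-1.06, limma adjusted p = 0.0254), Foxa2 (-0.62, 0.0309) and Nr1i3 (-0.77, 0.0484). The share of all genes called lower for MYC with this term is not given, so that count has no background beside it. The keratin set holds 1 of 5 MYC livers against 3 of 5 in each other genotype, and its part in these results beyond this fit was not tested. Keratin-bearing libraries were also nearly all shallower than keratin-free ones, as given above, so these differences cannot be credited to keratin set rather than read depth.

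Prox1, a homeobox factor of liver growth in the embryo, was at 24.6, 57.1, 38.0, 46.1 and 57.9 RPKM in wild-type day 4 livers and 32.0, 34.1, 23.6, 27.2 and 26.5 in MYC+Ex3 livers. All 5 MYC+Ex3 livers lay below the wild-type median, but wild-type liver 1 was as low as they were. The change was -0.57 ± 0.271 (limma adjusted p = 0.133), and without wild-type liver 1 it was -0.77 (0.0413). Within the keratin-free libraries (2 livers of each genotype) it was 0.11 (limma adjusted p = 0.822), and within the keratin-bearing ones (3 of each) -1.02 (0.00111). Whether the keratin sets differ in this change was not tested. Ex3 livers were narrow, at 37.8 to 42.0 RPKM, and all lay above the MYC+Ex3 livers (23.6 to 34.1). This separation, which 5.02% of all genes showed in that direction, came with a log2 difference of -0.48 ± 0.271 (limma adjusted p = 0.228), which was called from the compared groups only (0.00509) and within the keratin-bearing libraries (-0.59, 0.0141). The authors' deposited table gives Prox1 a log2 fold change of -0.70 for MYC+Ex3 against wild type, with an adjusted p of 0.00974. In the tumour arm Prox1 was at 7.71, 10.1 and 8.59 RPKM in MYC tumours and 8.35, 8.83 and 13.1 in MYC+Ex3 tumours. The S15 livers (13.8 to 14.5) lay above 3 of the 4 S14 livers (9.24 to 10.1) and close to the other (13.7). The change in MYC tumours was -0.42 ± 0.172 (limma adjusted p = 0.0583), at -0.25 (0.301) against the S14 and -0.64 (0.0168) against the S15 livers. In MYC+Ex3 tumours it was -0.26 ± 0.172 (limma adjusted p = 0.213), at -0.09 (0.71) and -0.48 (0.0397).

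Nr5a2, a receptor that controls bile acid synthesis, passed the test in none of the 9 comparisons as fitted. Over the day 4 livers it ran from 22.6 to 48.7 RPKM and over the tumour arm from 6.72 to 10.5. MYC livers were at 31.5, 37.9, 32.5, 22.6 and 33.0 RPKM, all below the wild-type median of 41.5 (-0.28 ± 0.139, limma adjusted p = 0.152). Without wild-type liver 1, the lowest of its group at 26.6 RPKM, this was -0.41 (limma adjusted p = 0.0237), without MYC liver 4 it was -0.17 (0.390), and within the keratin-free libraries -0.02 (0.959). In the MYC tumours the change was 0.08 ± 0.122 (95% interval -0.18 to 0.34), and -0.12 (limma adjusted p = 0.326) after rescaling. In the MYC+Ex3 tumours Nr5a2 was at 8.59, 6.72 and 9.62 RPKM against 8.01 to 9.62 in the livers (-0.07 ± 0.122, limma adjusted p = 0.625). After rescaling that change was -0.28 (limma adjusted p = 0.0298), and the authors' deposited table gives Nr5a2 -0.29 with an adjusted p of 0.00972.

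Nr1i3, the xenobiotic receptor CAR, varied widely between single livers and nodules. At day 4 it was at 42.6, 63.0, 62.7, 27.4 and 46.4 RPKM in wild-type, 57.3, 56.9, 66.3, 57.4 and 58.3 in Ex3, 25.9, 36.1, 37.8, 12.2 and 49.9 in MYC and 47.1, 35.9, 45.4, 30.2 and 53.2 in MYC+Ex3 livers. All Ex3 livers lay above all MYC+Ex3 livers, one of the 2 factors so separated in that comparison beside 5.02% of all genes. The change with MYC was -0.64 ± 0.275 (limma adjusted p = 0.102) and with MYC+Ex3 -0.16 ± 0.275 (95% interval -0.73 to 0.42). MYC+Ex3 livers differed from Ex3 livers by -0.50 ± 0.275 (limma adjusted p = 0.215, and 0.0196 from the compared groups only) and from MYC livers by 0.48 ± 0.275 (95% interval -0.09 to 1.06). Without wild-type liver 4 or without MYC liver 5 the change with MYC was -0.83 in both cases (limma adjusted p = 0.0392 and 0.0315), and without MYC liver 4 it was -0.34 (0.307). Male livers held less Nr1i3 than female ones by -0.55 ± 0.17 with genotype in the fit (limma adjusted p = 0.0843). The sex term called 0 of the 9 factors at day 4, where 3.09% of all genes were called, and 0 in the tumour arm, where 0.0506% were. In the tumour arm 1 nodule decided its value. MYC tumours were at 9.26, 7.16 and 0.811 RPKM, the third with 87 reads, against 6.84, 9.72 and 14.5 in the 4-OHT livers (lowest, median, highest). The change was -1.03 ± 0.414 (limma adjusted p = 0.0524), and -0.25 (0.493) without MYC tumour 3. MYC+Ex3 tumours were at 5.57, 9.40 and 12.2 RPKM (-0.17 ± 0.414, 95% interval -1.06 to 0.72).

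**Figure D4:**
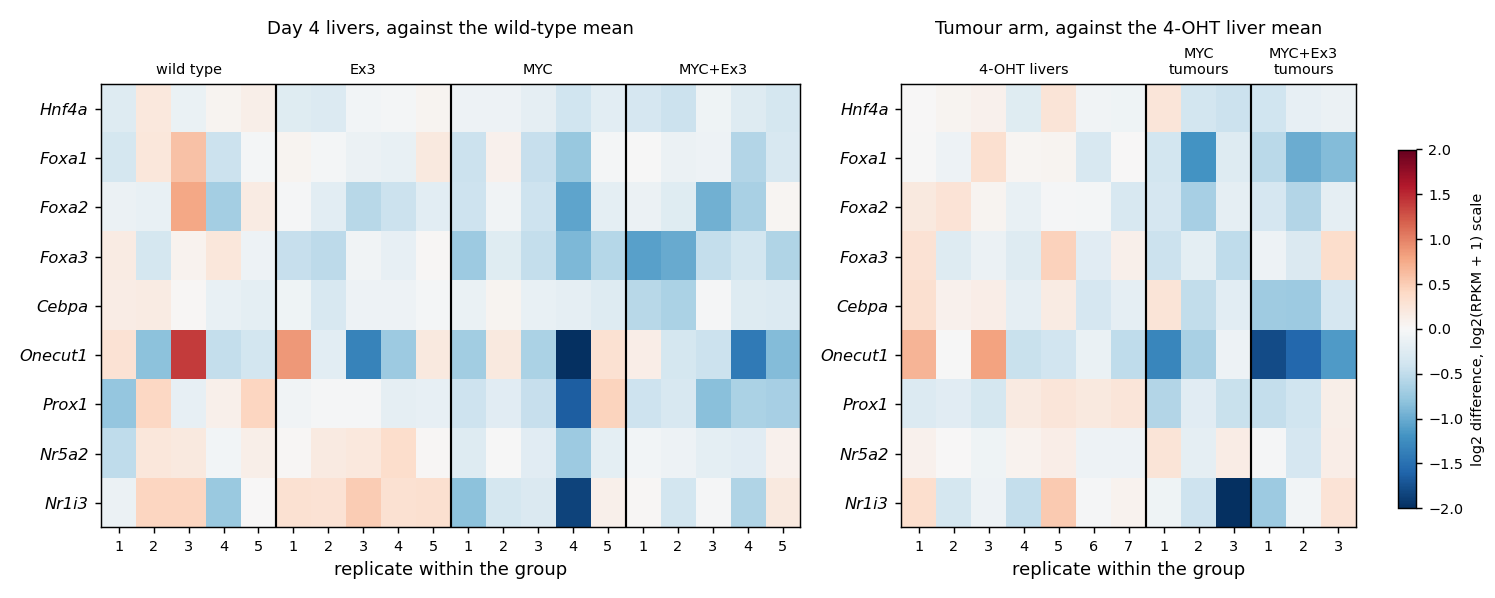
Log2 difference of each factor in each library (columns, numbered within groups) from the mean of the wild-type day 4 livers (left) or of the 4-OHT livers (right), on the log2(RPKM + 1) scale, with colours cut at -2 and 2. MYC liver 4 is the lowest of 20 for 6 of the 9 factors, and MYC tumour 3 is dark for Nr1i3.

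Single libraries stood apart for several factors at once. MYC liver 4 had the lowest value of all 20 day 4 livers for Foxa1, Foxa2, Onecut1, Prox1, Nr5a2 and Nr1i3. It was the only keratin-bearing MYC liver, and its hepatocyte markers summed to 2010 RPKM, inside the 1565 to 2305 of its group. Its bile duct markers summed to 103 RPKM, the highest of its group, and its endothelial markers to 107 RPKM, the lowest. Without MYC liver 4, MYC+Ex3 against wild type called Prox1 (-0.57, limma adjusted p = 0.0384), and MYC against wild type gained no factor. Wild-type liver 3 was the highest of 20 for Foxa1, Foxa2 and Onecut1, and MYC+Ex3 liver 2 the lowest for Hnf4a and Cebpa. In the tumour arm MYC tumour 3 was the lowest for Hnf4a, Foxa3 and Nr1i3, and 4-OHT liver 5 the highest for Hnf4a, Foxa3, Prox1 and Nr1i3. Across libraries some factors followed each other, which is a description over libraries that share genotype and depth: Nr5a2 with Nr1i3 (Pearson r = 0.79), Foxa1 with Nr1i3 (0.75), Foxa2 with Onecut1 (0.74) and Foxa1 with Foxa2 (0.72) over the 20 day 4 livers. Over the 13 libraries of the tumour arm the closest pair was Hnf4a with Cebpa (0.76).

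The genes whose levels were most like those of the called factors, among genes with a mean of at least 5 RPKM, were found by Pearson r of log2(RPKM + 1). Over 20 day 4 livers and 9651 genes they were Golph3 (0.89) and Osbpl1a (0.84) for Hnf4a, Osbpl9 and Gpr146 (0.90 each) for Foxa3, and Sdhb (0.82) and Pts (0.80) for Cebpa. Over 13 libraries and 5473 genes of the tumour arm they were Aacs (0.95) and Fndc3a (0.91) for Foxa1, Mcfd2 and Nsdhl (0.90 each) for Foxa2, Ankrd46 (0.97) and Azi2 (0.96) for Cebpa, and Ptprk and Wfdc17 (0.92 each) for Onecut1.

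The other transcription factors enriched in liver were called lower or not at all. Of 24 such genes, all tested in both sets, 4 were lower and 0 higher with MYC at day 4 (5.36% of all genes were lower), among them Ppara (-0.90 ± 0.26), the fatty acid oxidation receptor, and Onecut2 (-0.72 ± 0.192), the paralog of Onecut1. With MYC+Ex3 against wild type 2 were lower (6.18% of all genes), Onecut2 (-0.63 ± 0.192) and Nr1h4 (-0.39 ± 0.0978), the bile acid receptor FXR. MYC+Ex3 against Ex3 had 4 lower (4.7% of all genes), with Klf15 (-0.59 ± 0.207) and Onecut2 (-0.59 ± 0.192). The MYC tumours had 6 lower (13.7% of all genes), the MYC+Ex3 tumours 8 lower (18.4% of all genes), and both 0 higher. Onecut2 led both, going from 10.9 RPKM in 4-OHT livers to 4.10 ± 0.983 in MYC tumours (-1.23 ± 0.122, limma adjusted p = 4.77e-06) and to 2.74 ± 0.191 in MYC+Ex3 tumours (-1.66 ± 0.122, limma adjusted p = 1.57e-07; SD, n = 3). Zhx2, a repressor of fetal liver genes, was next, with -0.88 ± 0.196 and -1.35 ± 0.196. None of the 24 was called with Ex3 alone, for MYC+Ex3 against MYC, for the interaction or between the kinds of tumour.

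The target genes of the factors were counted from lists named for each factor. They are to be read against the share of all genes called lower: 5.36% with MYC, 6.18% with MYC+Ex3 against wild type, 4.7% against Ex3, 13.7% in MYC tumours and 18.4% in MYC+Ex3 tumours. At day 4 most of these counts are of 1 to 3 genes. Of 15 HNF4A targets 1 was lower with MYC at day 4 (F9, coagulation factor IX, -0.41 ± 0.112), 3 with MYC+Ex3 against wild type (F9 -0.48 ± 0.112 and Otc, a urea cycle enzyme, -0.45 ± 0.154, among them), 5 in MYC tumours and 8 in MYC+Ex3 tumours, with 0 higher. Cyp8b1, the sterol 12-alpha-hydroxylase of bile acid synthesis, led in MYC tumours (-1.43 ± 0.474), and Ugt2b1, a conjugating enzyme, in MYC+Ex3 tumours (-2.71 ± 0.365), where it went from 25.5 to 2.86 ± 1.14 RPKM (SD, n = 3). Of 8 CEBPA targets 2 were lower with MYC (Pck1, a gluconeogenic enzyme, -0.74 ± 0.251, and Tat, which breaks down tyrosine, -0.57 ± 0.196). MYC+Ex3 against wild type had 1 (G6pc, the last step of glucose release, -0.58 ± 0.197), against Ex3 3 (Pck1 -0.87 ± 0.251 and Tat -0.63 ± 0.196 the furthest), MYC tumours 2 (Gys2 -1.47 ± 0.546 and Cebpd -0.50 ± 0.186) and MYC+Ex3 tumours 4 (Pck1 -1.72 ± 0.452, Tat -0.73 ± 0.222). Of 8 NR5A2 and bile acid genes the bile salt export pump Abcb11 was the 1 lower with MYC (-0.38 ± 0.134), and 3 were lower with MYC+Ex3 against wild type, among them Abcb11 (-0.48 ± 0.134) and Baat (-0.43 ± 0.12), which joins bile acids to amino acids. The tumours had 2 lower each, Cyp8b1 and Baat (-1.09 ± 0.378 and -1.71 ± 0.378), and MYC+Ex3 tumours 1 higher, the HDL receptor Scarb1 (0.32 ± 0.123). The lists share Cyp8b1 and Slc10a1. In the MYC tumours Cyp8b1 (16.7 ± 17.1 RPKM), Baat (18.3 ± 15.8) and Gys2 (9.22 ± 7.99) varied widely between nodules (SD, n = 3). Cebpd was low there, at 0.842 ± 0.517 RPKM (SD, n = 3) against a mean of 1.58 in the 4-OHT livers.

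The CAR targets called were higher at day 4 and in both directions in the tumours. Of all genes, 16.9% were called higher with MYC and 17.9% with MYC+Ex3 against wild type. Of 12 targets, MYC at day 4 raised 1 (Gadd45b, a stress-response gene, 1.30 ± 0.426) and MYC+Ex3 against wild type raised 3, with Cyp2c55 (2.22 ± 0.389, from 4.80 to 24.3 ± 4.64 RPKM) and Gstm3 (1.51 ± 0.361) the furthest, while 0 were lower. In the tumours 5 of 12 were lower in each kind (13.7% and 18.4% of all genes). Cyp2b9 went from 22.7 RPKM in 4-OHT livers to 2.0 ± 3.40 in MYC tumours (-3.50 ± 0.551) and 1.02 ± 1.34 in MYC+Ex3 tumours (-3.64 ± 0.551; SD, n = 3). Cyp2b10, the textbook CAR target, was at 2.44, 4.86 and 8.21 RPKM in the 4-OHT livers (lowest, median, highest). It was at 0, 0.0881 and 0.0341 RPKM in the MYC+Ex3 tumours, below all livers (-2.38 ± 0.304, limma adjusted p = 1.55e-05), while Nr1i3 itself overlapped between these groups. In the same tumours Gadd45b (2.57 ± 0.24) and Cyp2c55 (2.0 ± 0.471) were the 2 higher, and in MYC tumours Gadd45b was the 1 higher (1.35 ± 0.24). Gadd45b was also higher in MYC+Ex3 than in MYC tumours (1.23 ± 0.284, limma adjusted p = 0.0253). Cyp2c37 was chosen after its values were seen. In MYC tumour 3, where Nr1i3 was at 0.811 RPKM, Cyp2b10 was at 0.0570 RPKM, Cyp2c37 at 0.549 and Cyp2c29 at 0.709, against 1.92, 18.7 and 0.165 in MYC tumour 1 and 1.30, 12.1 and 17.8 in MYC tumour 2. Cyp2e1, which is not on the list of CAR targets, was also lowest in MYC tumour 3 (8.05 RPKM, against 47.5 and 28.8 in MYC tumours 1 and 2). A link of these values to Nr1i3 was not tested. Cyp2b, Cyp2c and Ugt2b genes have near-identical copies, so their reads could be split between copies in the counting.

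Genes of cell division were called higher in every comparison in which a factor was called lower. All 12 proliferation genes rose with MYC at day 4, with MYC+Ex3 against wild type and against Ex3, and in both kinds of tumour, and 0 were called with Ex3 alone. Of all genes, 16.9%, 17.9%, 16.4%, 36.2% and 42.3% were called higher in those 5 comparisons. Ccnb1, the mitotic cyclin, rose by 4.64 ± 0.645 with MYC, from 1.16 to 56.1 ± 25.3 RPKM, and by 5.15 ± 0.645 with MYC+Ex3 (SD, n = 5). Of 10 hepatoblast genes 7 were tested at day 4, where 0 were called with MYC and 1 with MYC+Ex3 against wild type (Gpc3, 0.88 ± 0.313), while Epcam was lower in MYC+Ex3 than in Ex3 livers (-1.14 ± 0.25). Both genes were low: Gpc3 went from 0.536 ± 0.281 to 1.84 ± 0.588 RPKM (SD, n = 5 each). Epcam was at 0.558 ± 0.131 RPKM in MYC+Ex3 livers against an uneven 2.83 ± 2.38 in Ex3 livers (SD, n = 5 each). In the tumour arm 8 were tested, 7 were higher in MYC tumours and 6 in MYC+Ex3 tumours. The fetal growth gene Igf2 went from 0.0693 RPKM in 4-OHT livers to 39.9 ± 4.52 and 43.0 ± 4.04 (SD, n = 3 each), while the bile duct and progenitor gene Spp1 was lower in MYC+Ex3 tumours (-1.37 ± 0.2). MYC+Ex3 tumours also held more Gpc3 than MYC tumours (2.28 ± 0.476, limma adjusted p = 0.014) and less Spp1 (-1.21 ± 0.237, limma adjusted p = 0.00937).

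**Figure D5:**
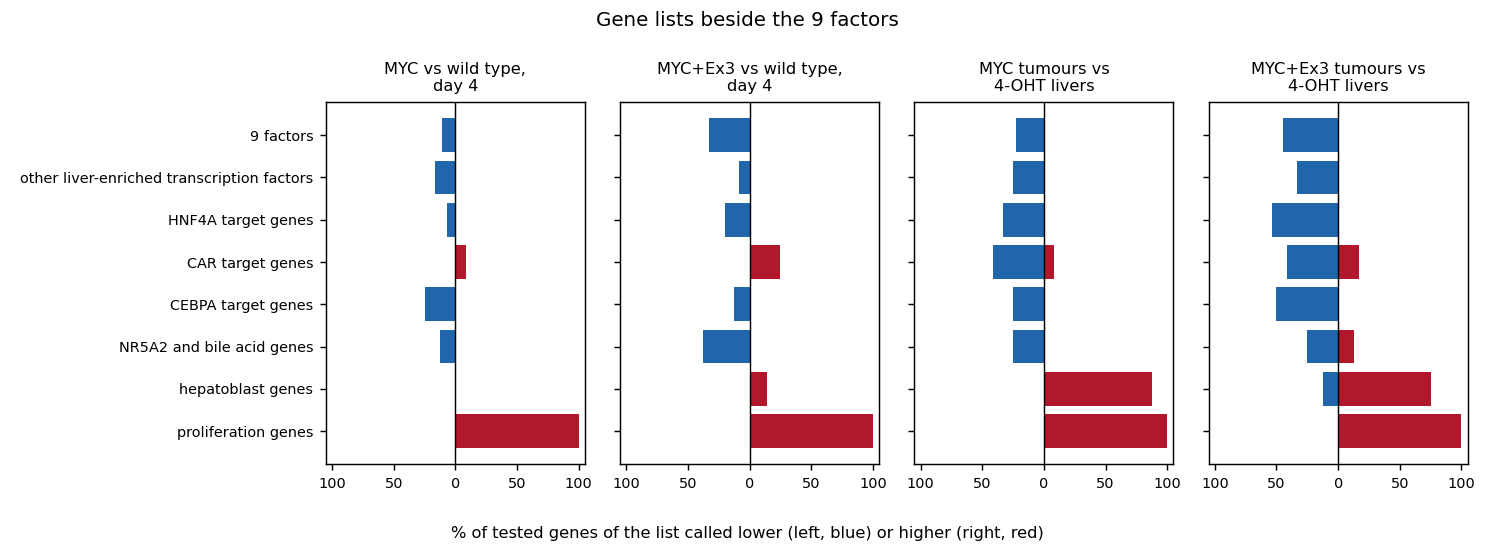
Share of the tested genes of each list called lower (left, blue) or higher (right, red) in 4 comparisons (x axis, %), with the 9 factors in the top bar. The 24 other liver factors have calls on the left only, and the proliferation list reaches 100% higher in all 4.

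The make-up of the tissue moved with the tumour comparisons. Hepatocyte markers summed to 303 to 414 RPKM in the 4-OHT livers, 280 to 451 in the MYC tumours and 280 to 356 in the MYC+Ex3 tumours, ranges that overlapped, with 0 of 9 called lower in MYC tumours and 3 of 9 in MYC+Ex3 tumours. Macrophage markers summed to 104 to 140 RPKM in the livers, 26.6 to 109 in the MYC tumours and 47.9 to 59.1 in the MYC+Ex3 tumours, with 6 and 5 of 7 called lower. Endothelial markers went from 40.5 to 68.1 RPKM to 23.3 to 37.3 and 25.0 to 29.7, with 4 of 6 lower in each. Bile duct markers summed to 11.1 to 16.5 RPKM in the livers, 8.40 to 21.6 in MYC tumours (0 of 3 tested called) and 4.75 to 9.30 in MYC+Ex3 tumours (2 of 3 lower). Onecut1 and Foxa1 are both also used by bile duct cells, and their means were lowest in the MYC+Ex3 tumours. The single lowest Foxa1 value was in MYC tumour 2 (0.622 RPKM), whose bile duct sum was the highest, at 21.6 RPKM. The 3 erythroid markers summed to 13 to 30.3 RPKM in the livers and 52.7 to 65.5 in the MYC+Ex3 tumours (3 of 3 called higher), with 10.3 to 49.2 and 0 called in the MYC tumours. Lymphocyte markers summed to 1.45 to 4.30 RPKM in the livers, 0.698 to 4.17 in the MYC tumours (0 of 2 tested called) and 0.720 to 0.771 in the MYC+Ex3 tumours (2 of 2 lower). Stellate cell and fibroblast markers summed to 34.3 to 43.7 RPKM in the livers, 25.3 to 47.4 in the MYC tumours (3 of 7 higher, 2 lower) and 22.8 to 29.3 in the MYC+Ex3 tumours (1 higher, 4 lower). No marker of these lists was at 0 throughout a group. At day 4 the hepatocyte sums overlapped between all genotypes (1890 to 2289 RPKM in wild type, 1565 to 2305 with MYC, 1425 to 2357 with MYC+Ex3) and 0 of 9 hepatocyte markers were called in any comparison. In every group of both sets the library with the most reads in genes had the lowest hepatocyte sum. MYC+Ex3 liver 2 held 7.31 M reads and summed to 1425 RPKM, and MYC+Ex3 liver 3 held 3.75 M and summed to 2357. These sums moved with depth, so their overlap does not settle hepatocyte content. Whether the upper limit of the table shaped them was not tested. The part of the tissue make-up in the changes of the 9 factors was not tested.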

How the data were processed

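Stranded total RNA libraries came from homogenised tissue, per the labels' protocols. The submitters' processing notes name TopHat2 2.0.8, SAMtools, featureCounts 1.4.5-p1, DESeq2 and mm9, with no roles. The authors deposited RPKM per gene and library, and log2 fold changes with adjusted p-values for 7 comparisons. The deposited RPKM were taken as log2(RPKM + 1) and fitted with limma 3.58.1 (R 4.3.3), with trend. Tests were two-sided, with Benjamini-Hochberg adjustment over all genes tested in each of 9 comparisons. A gene was tested with at least 1 RPKM in at least 3 libraries of its set, and called at an adjusted p under 0.05. Fold changes on this scale understate changes of low genes. Whole reads were recovered from the RPKM for 20485 genes, all that were not 0 in every library, within 0.0001 reads. No count test was run on these reads. The day 4 livers and the tumour arm were fitted separately. The 9 factors and the gene lists were chosen with earlier results of these data known. All 9 factors are named; from each list at most the 2 largest rises and 2 largest falls called, and 2 genes by likeness. Alternatives were another pseudocount (0.1), filters (none, or 5 RPKM), median-ratio rescaling, sex, keratin and depth terms, sample weights, the compared groups alone, library subsets and leaving out each library. The depth term was chosen after seeing the data. The fit was tested on simulated data. Promoters are RefSeq, GRCm38.p6, matched by symbol for 9 of 9 factors.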

Additional observations from a re-analysis of the deposited data

Results flagged for a closer look

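Over the 45 combinations of a factor with a group of 5 or 7 livers, 2 samples stood far from the rest of their group by the gap to the nearest sample over the whole range. Chance alone gives about 1 in 20. Cebpa in Ex3 liver 2 was at 142 RPKM, the lowest of 5, with the nearest at 165 (ratio 0.756 against a critical value of 0.71). Nr1i3 in Ex3 liver 3 was at 66.3 RPKM, the highest of 5, with the nearest at 58.3 (ratio 0.85).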

How the results depend on the processing

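No paired analysis was possible because replicate numbers were given in accession order and pair no animals. Of 2238 values of the 9 factors under alternatives, leaving out 1 library ended 29 calls and gave 15, and other settings ended 19 and gave 27. With a call 0 changed sign, and 90 differed in sign with no call. Factors called for MYC against wild type numbered 1, and 4 with a keratin term (1 to 2 without 1 library). MYC+Ex3 against wild type called 3, 1 from the compared groups only (1 to 4 without 1 library). MYC+Ex3 against MYC called 0, and 1 with sample weights. MYC+Ex3 against Ex3 called 1, 0 with no filter, 5 with weights and 2 from the compared groups, Prox1 and Nr1i3 in place of Foxa3 (0 to 2 without 1 library). MYC tumours called 2, 7 after rescaling, and 1 each with sex, weights or the S15 livers, where the 1 was Prox1 and both Foxa1 and Foxa2 were lost (1 to 4 without 1 library). MYC+Ex3 tumours called 4, and 7 after rescaling (2 to 4 without 1 library).

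Over all genes, Ex3 against wild type called 18, 31 with sex, 62 with weights and 2 in either keratin set (5 to 22 without 1 library). MYC called 3047, and 1249 in keratin-free libraries (2239 to 3491). MYC+Ex3 against wild type called 3301, and 6416 with weights (2395 to 3800). MYC+Ex3 against MYC called 26, 11 with pseudocount 0.1, 10 with no filter or from the compared groups, 78 with weights and 6 in keratin-free libraries (7 to 37). MYC+Ex3 against Ex3 called 2893, 6707 with weights and 1668 in keratin-bearing libraries (2057 to 3402). MYC tumours called 5907, and 3636 with the filter at 5 RPKM (4430 to 6150), and MYC+Ex3 tumours 7189, and 4278 (5978 to 7667). MYC+Ex3 against MYC tumours called 489, 240 with that filter, 311 with weights and 70 from the compared groups (199 to 764). A filter tests fewer genes; other causes were not tested. The 3 nodules per tumour group and the low reads of Foxa1 and Onecut1 there limit precision.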
